A study of Mus musculus with 15 samples.

Results

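The tumour suppressor p53 and 9 of its direct target genes were followed in a mouse acute myeloid leukemia while its RAS oncogene was switched off. The 10 genes were Trp53, which encodes p53, and Mdm2, Trp53inp1, Ccng1, Zmat3, Phlda3, Aen, Fas, Bbc3 and Plk2. A gene was taken when a probe set of the array carried exactly its symbol and no other. This held for 9 of the 10 genes, with 18 probe sets, out of 18193 genes measured on 45037 probe sets. Trp53 was not analysed here.

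The leukemia carried the fusion gene Mll-AF9 together with an NRASG12V transgene, a constitutively active RAS, and every group carried both. It was grown in SCID/Beige mice, which lack functional T and B lymphocytes and have impaired natural killer cells, and cells were taken from leukemic spleens once blood leukocyte counts were high. Doxycycline, given by injection and in the drinking water, turned NRASG12V expression off. The RAS-ON group (0 h, vehicle) had 5 arrays, and the RAS-OFF groups at 48, 60, 72, 84 and 96 h of doxycycline had 2 arrays each. Doxycycline itself and the loss of RAS cannot be told apart, since no RAS-ON leukemia received the drug. The labels speak of replicates and do not state whether separate mice were used, so the p-values below measure the spread between these arrays.

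p53 is a transcription factor that is held at a low level by the ubiquitin ligase MDM2 and is stabilised when DNA damage, oncogene activity or other stress interrupts that control. It then binds near its target genes and raises the transcription of cell cycle inhibitors, DNA repair genes, apoptosis genes and Mdm2 itself, which closes a negative feedback loop. Hyperactive RAS is a classical inducer of this pathway through the ARF protein of the Cdkn2a locus, and myeloid leukemias often depend on keeping p53 in check. The mRNA levels of targets are read here; p53 protein was not measured.

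A p53 binding site is built from copies of a motif of 10 bases: 3 purines, then C, 2 letters that are each A or T, and G, then 3 pyrimidines. Only exact matches to this motif were counted. The promoters below are shown because they hold 1 copy of that motif between 250 bases upstream and 50 bases downstream of an annotated start (RefSeq, GRCm38.p6), with the match in capitals, read in the direction of the gene.
Mdm2, chr10:117710915-117710964, minus strand: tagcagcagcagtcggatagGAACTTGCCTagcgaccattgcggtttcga
Ccng1, chr11:40755442-40755491, minus strand: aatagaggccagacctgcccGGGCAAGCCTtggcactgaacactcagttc
Aen, chr7:78895927-78895956, plus strand: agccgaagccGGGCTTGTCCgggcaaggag
The promoter table listed 7 of the 9 measured genes. The windows of Phlda3, Fas, Bbc3 and Plk2 held no such match, and Trp53inp1 and Zmat3 were not listed. At least 1 match, on either strand, was found in 8.36% of the 32851 promoters in the table. No measured member had a pair of matches 0 to 13 bases apart, which 0.0731% of all promoters had. A match describes these letters and does not show that p53 binds there.

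Over all RAS-OFF times together, 4 of the 9 measured targets passed the test against RAS-ON, with the death receptor gene Fas and Trp53inp1 higher and the p53 inhibitor gene Mdm2 and the apoptosis gene Bbc3 lower. Ccng1, Zmat3, Phlda3, Aen and Plk2 did not pass it. The shifts were small: only that of Trp53inp1, 0.60 ± 0.21 (SE) on the log2 scale, exceeded 0.27 in size. The test was limma's moderated test with 6 group means, with Benjamini-Hochberg adjustment across the 18193 genes and a threshold of 0.05. Among all genes 48.8% passed it, 20.1% higher and 28.7% lower, so 2 higher and 2 lower of 9 is close to the background. The median change of the 9 targets was 0.11, against -0.04 over all genes. None of the 9 separated the 10 RAS-OFF arrays from the 5 RAS-ON arrays completely, whereas 9.36% of all genes lay wholly above and 12% wholly below.

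**Figure D1:**
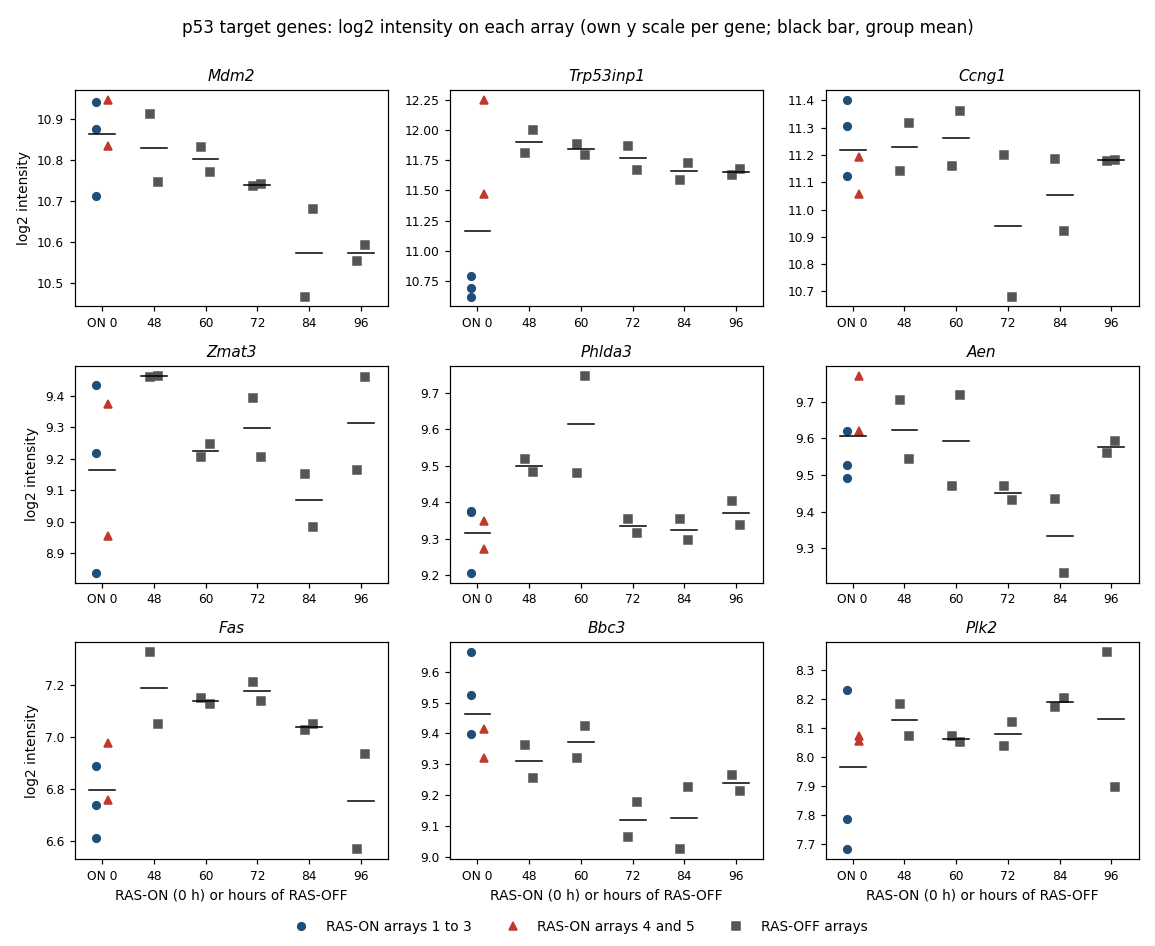
Log2 intensity (y axis, its own scale per gene) of the 9 measured p53 targets on each array, for RAS-ON at 0 h and for each RAS-OFF time in hours (x axis). Circles are RAS-ON arrays 1 to 3, triangles RAS-ON arrays 4 and 5, squares RAS-OFF arrays and bars group means. For Trp53inp1 the RAS-OFF arrays, between 11.59 and 12.00, lie above RAS-ON arrays 1 to 3 and between arrays 4 and 5.

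The RAS-ON arrays are shown in their subsets 1 to 3 and 4 and 5, which were chosen with earlier results of these data known. The labels give no reason for such a split. The 2 subsets did not overlap for 42.8% of all genes, a description and not a test of the split. Among the targets they did not overlap for 2 of 9, Trp53inp1 and Aen.

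Mdm2, the ubiquitin ligase gene that is both target and inhibitor of p53, had log2 intensities of 10.71, 10.94 and 10.88 on RAS-ON arrays 1 to 3 and of 10.83 and 10.95 on arrays 4 and 5. The RAS-OFF arrays read 10.91 and 10.74 at 48 h, 10.83 and 10.77 at 60 h, 10.74 and 10.74 at 72 h, 10.47 and 10.68 at 84 h, and 10.55 and 10.59 at 96 h. The 4 arrays of 84 and 96 h lay below every RAS-ON array, and the earlier ones lay within the RAS-ON range. RAS-ON averaged 10.86 ± 0.10 (SD, n = 5) and RAS-OFF 10.70 ± 0.13 (SD, n = 10), a difference of -0.16 ± 0.06 (SE, limma adjusted p = 0.0286). By time, the differences from RAS-ON were -0.03, -0.06 and -0.12 up to 72 h, none of which passed, and -0.29 at both 84 h (adjusted p = 0.0151) and 96 h (adjusted p = 0.015).

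Across the RAS-OFF times the Mdm2 slope was -0.07 ± 0.02 per 12 h (SE, adjusted p = 0.044), a call that 8.75% of genes had in this direction. These Mdm2 calls stand near the threshold. The overall difference kept its sign in 26 of 26 alternative analyses and passed in 14, with adjusted p from 0.0115 to 0.256. It missed without RAS-ON replicate 2 (0.0781), 3 (0.0514) or 5 (0.0766), replicate 2 of 48 h (0.0558) or replicate 1 of 84 h (0.0584). The 84 h call was lost without 84 h replicate 1 (-0.18, adjusted p = 0.251), and the 96 h call without 96 h replicate 1 (0.106) or 2 (0.0571). The slope passed in 14 of 26 alternatives. It was lost without 48 h replicate 1 (-0.06, adjusted p = 0.282), 60 h replicate 1 (0.0895) or 2 (0.0657), 72 h replicate 1 or 2 (0.0597), 84 h replicate 1 (0.1), or 96 h replicate 1 (0.149) or 2 (0.0895).

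Neither of the targets tied to the cell cycle passed on its brightest probe set. Ccng1 encodes cyclin G1, which recruits a phosphatase to MDM2. It read between 11.06 and 11.40 in RAS-ON, with 11.12, 11.40 and 11.31 on arrays 1 to 3 and 11.06 and 11.19 on arrays 4 and 5. The RAS-OFF arrays ran from 10.68 to 11.36 with a median of 11.18, and 2 of them, at 72 and 84 h, lay below every RAS-ON array. The difference was -0.08 ± 0.09 (SE, adjusted p = 0.448) on the brightest probe set.

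Plk2, a polo-like kinase gene induced by stress, read 8.23, 7.68 and 7.79 on RAS-ON arrays 1 to 3 and 8.07 and 8.06 on arrays 4 and 5. RAS-OFF arrays ran from 7.90 to 8.36 with a median of 8.10, inside the RAS-ON range but for 1 array of 96 h. The difference was 0.15 ± 0.09 (SE, adjusted p = 0.183). It passed in none of the alternatives.

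Trp53inp1, whose product binds p53 and takes part in cell death and autophagy, had the largest shift of the group and the widest RAS-ON spread. RAS-ON arrays 1 to 3 read 10.79, 10.69 and 10.62, and arrays 4 and 5 read 12.25 and 11.47. The RAS-OFF arrays read 11.81 and 12.00 at 48 h, 11.89 and 11.79 at 60 h, 11.87 and 11.66 at 72 h, 11.59 and 11.72 at 84 h, and 11.62 and 11.67 at 96 h. All 10 lay above RAS-ON arrays 1 to 3, and none lay above or below both of arrays 4 and 5. The RAS-ON mean was 11.17 ± 0.69 (SD, n = 5) and the RAS-OFF mean 11.76 ± 0.13 (SD, n = 10).

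The Trp53inp1 difference therefore turned on which RAS-ON arrays served as the baseline. Against all 5 it was 0.60 ± 0.21 (SE, limma adjusted p = 0.0273), and against arrays 1 to 3 alone 1.06 (adjusted p = 2.78e-08). Arrays 4 and 5 as the only baseline gave -0.10 (adjusted p = 0.625). Leaving out RAS-ON replicate 1, 2 or 3 also ended the call (adjusted p = 0.0868, 0.0868 and 0.082). At single times the difference went from 0.74 at 48 h to 0.48 at 96 h and passed at none. A second probe set of the gene differed by -0.11 (limma adjusted p = 0.118), with the opposite sign. It was dim: its mean level exceeded that of 28.5% of all probe sets, beside 96.3% for the brightest one.

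The 3 genes most like Trp53inp1 over the 15 arrays were Cpq (Pearson r = 0.923), Scarb2 (r = 0.907) and Fis1 (r = 0.904), chosen as the highest correlations among all genes. These points share arrays and the 2 RAS-ON subsets, and the values are a description. Cpq, for example, averaged 8.40 on RAS-ON arrays 1 to 3, 8.93 on arrays 4 and 5 and 8.99 in RAS-OFF. The mean levels of 4 marker lists were also lowest on RAS-ON arrays 1 to 3, higher on arrays 4 and 5 and highest in RAS-OFF. For 11 markers of splenic red pulp macrophages the mean log2 level was 9.82 on arrays 1 to 3, 10.08 on arrays 4 and 5, and 10.24 to 10.62 on RAS-OFF arrays. Among them Hmox1 (-0.49) and Adgre1 (-0.25) were called lower in RAS-OFF, and Adgre1 was also lower on arrays 4 and 5. For 7 megakaryocyte markers the levels were 10.57, 10.69 and 10.98 to 11.29, for 7 stroma and endothelium markers 9.71, 9.75 and 9.97 to 10.35, and for 5 T cell markers 7.68, 7.73 and 7.92 to 8.14. The other marker lists did not follow this order. From arrays 1 to 3 to arrays 4 and 5, erythroid (11.27 to 11.10), natural killer cell (8.04 to 8.02) and neutrophil markers (12.61 to 12.57) went down. Myeloid leukemia markers (11.67 and 11.69) and B cell markers (8.06 and 8.18) were lower in RAS-OFF, at 10.59 to 11.13 and 7.54 to 7.77. Single markers did not all follow their list. On arrays 4 and 5 against arrays 1 to 3, Cd3d (0.52) and Cd3e (0.15) were higher. The T cell markers Cd3g (-0.16), Cd4 (-0.12) and Cd8a (-0.12) were lower there. Of stroma and endothelium markers, Pecam1 (-0.15), Pdgfrb (-0.10) and Col3a1 (-0.17) were lower there and the others higher. Pecam1 was also called lower in RAS-OFF (-0.87). The part of these cell types in the Trp53inp1 values was not tested.

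Of the other stress effectors, Phlda3, which encodes an inhibitor of AKT signalling, was called higher at 60 h only. RAS-ON arrays 1 to 3 read 9.21, 9.38 and 9.37, and arrays 4 and 5 read 9.27 and 9.35. The RAS-OFF arrays read 9.52 and 9.48 at 48 h, 9.48 and 9.75 at 60 h, 9.35 and 9.32 at 72 h, 9.35 and 9.30 at 84 h, and 9.40 and 9.34 at 96 h. The 4 arrays of 48 and 60 h and 1 of 96 h exceeded every RAS-ON array. The difference was 0.19 ± 0.08 (SE, limma adjusted p = 0.105) at 48 h and 0.30 ± 0.08 (SE, adjusted p = 0.0136) at 60 h. Over all times it was 0.11 ± 0.05 (SE, adjusted p = 0.0919). The 60 h call was lost without 60 h replicate 2 (0.17, adjusted p = 0.284), and the overall difference passed without 60 h replicate 1 (adjusted p = 0.0319), as did the slope (adjusted p = 0.047).

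Zmat3, which encodes an RNA-binding zinc finger protein, read 8.84, 9.22 and 9.43 on RAS-ON arrays 1 to 3 and 8.96 and 9.37 on arrays 4 and 5. RAS-OFF arrays ran from 8.98 to 9.46 with a median of 9.23, and 3 of them lay just above the highest RAS-ON array. The difference was 0.11 ± 0.09 (SE, adjusted p = 0.356), and no alternative passed.

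The apoptosis genes went in different directions. Fas encodes a cell surface death receptor. The mean level of its probe set exceeded that of 43.9% of all probe sets. RAS-ON arrays 1 to 3 read 6.74, 6.61 and 6.89, and arrays 4 and 5 read 6.76 and 6.98. The RAS-OFF arrays read 7.33 and 7.05 at 48 h, 7.15 and 7.13 at 60 h, 7.21 and 7.14 at 72 h, 7.03 and 7.05 at 84 h, and 6.57 and 6.94 at 96 h. All 8 arrays of 48 to 84 h lay above every RAS-ON array. At 96 h, replicate 1 (6.57) lay below the RAS-ON range and replicate 2 (6.94) within it. On this replicate 1 the 3′ probe set of Gapdh exceeded the 5′ one by 1.22, a sign of shortened RNA. The other arrays had 0.10 to 0.35. The part of RNA quality in the low Fas value was not tested.

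The Fas difference over all RAS-OFF times was 0.27 ± 0.07 (SE, limma adjusted p = 0.00836). It was 0.40 (adjusted p = 0.0181) at 48 h, 0.35 (0.0359) at 60 h and 0.38 (0.0183) at 72 h, then 0.24 (0.109) at 84 h and -0.04 (0.807) at 96 h. Fas was absent from the set without the dimmest 40% of genes. The overall call held in 24 of 25 alternatives. With only RAS-ON arrays 4 and 5 as baseline it did not pass (0.19, adjusted p = 0.145). With 2 arrays a time, single arrays decided the times: without 48 h replicate 1 the 48 h value was 0.26 (adjusted p = 0.256). The 60 h call was lost without either 60 h array (0.190 and 0.144) or RAS-ON replicate 1 (0.0654), 2 (0.0672) or 4 (0.0523), and the 72 h call without either 72 h array (0.152 and 0.0704).

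Fas fell by 0.10 ± 0.03 (SE) per 12 h across the RAS-OFF times (adjusted p = 0.045). The slope passed in 13 of 25 alternatives. It was -0.07 (adjusted p = 0.317) without 48 h replicate 1 and -0.06 (adjusted p = 0.298) without 96 h replicate 1. It also missed without RAS-ON replicate 1 (0.0563), 60 h replicate 1 (0.0839) or 2 (0.077), 72 h replicate 1 or 2 (0.0598), or 84 h replicate 1 (0.079) or 2 (0.0752). Falling slopes were called for 4 of 5 natural killer cell markers, 4 of 8 neutrophil markers, 4 of 11 myeloid leukemia markers, 1 of 5 T cell markers, 1 of 11 red pulp macrophage markers and 1 of 7 stroma and endothelium markers, beside 8.75% of all genes. No falling slope was called among 9 erythroid, 7 megakaryocyte and 4 B cell markers. Rising slopes were called for 4 of the erythroid and 1 of the B cell markers, beside 5% of all genes. The natural killer cell markers had a mean log2 level of 7.996 to 8.11 on RAS-ON arrays and 8.13 to 8.87 on RAS-OFF arrays. The part of these cell types in the Fas values was not tested.

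Bbc3, which encodes the BH3-only protein PUMA, was lower. RAS-ON arrays 1 to 3 read 9.52, 9.66 and 9.40, and arrays 4 and 5 read 9.32 and 9.41. The RAS-OFF arrays read 9.36 and 9.26 at 48 h, 9.32 and 9.42 at 60 h, 9.06 and 9.18 at 72 h, 9.02 and 9.23 at 84 h, and 9.27 and 9.21 at 96 h. All 6 arrays from 72 h on and 1 of 48 h lay below every RAS-ON array.

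The Bbc3 difference was -0.23 ± 0.06 (SE, limma adjusted p = 0.00648). It was -0.34 at both 72 h (adjusted p = 0.012) and 84 h (adjusted p = 0.0113), and -0.22 (0.0766) at 96 h. The overall call held in 25 of 26 alternatives. With only RAS-ON arrays 4 and 5 as baseline it did not pass (-0.13, adjusted p = 0.173). The 72 h call was lost without 72 h replicate 1 (-0.29, adjusted p = 0.147) and the 84 h call without 84 h replicate 1 (-0.24, adjusted p = 0.186).

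Aen encodes a nuclease that digests DNA during apoptosis. It read 9.53, 9.62 and 9.49 on RAS-ON arrays 1 to 3 and 9.62 and 9.77 on arrays 4 and 5, and ran from 9.23 to 9.72 with a median of 9.51 in RAS-OFF. Over all times it differed by -0.09 ± 0.06 (SE, limma adjusted p = 0.251), with 5 of 10 RAS-OFF arrays below every RAS-ON array. At 84 h, with 9.43 and 9.23, it differed by -0.27 (adjusted p = 0.0358). That call was lost without 84 h replicate 2 (-0.17, adjusted p = 0.365) and without RAS-ON replicate 2 (0.0554), 4 (0.0504) or 5 (0.0645).

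**Figure D2:**
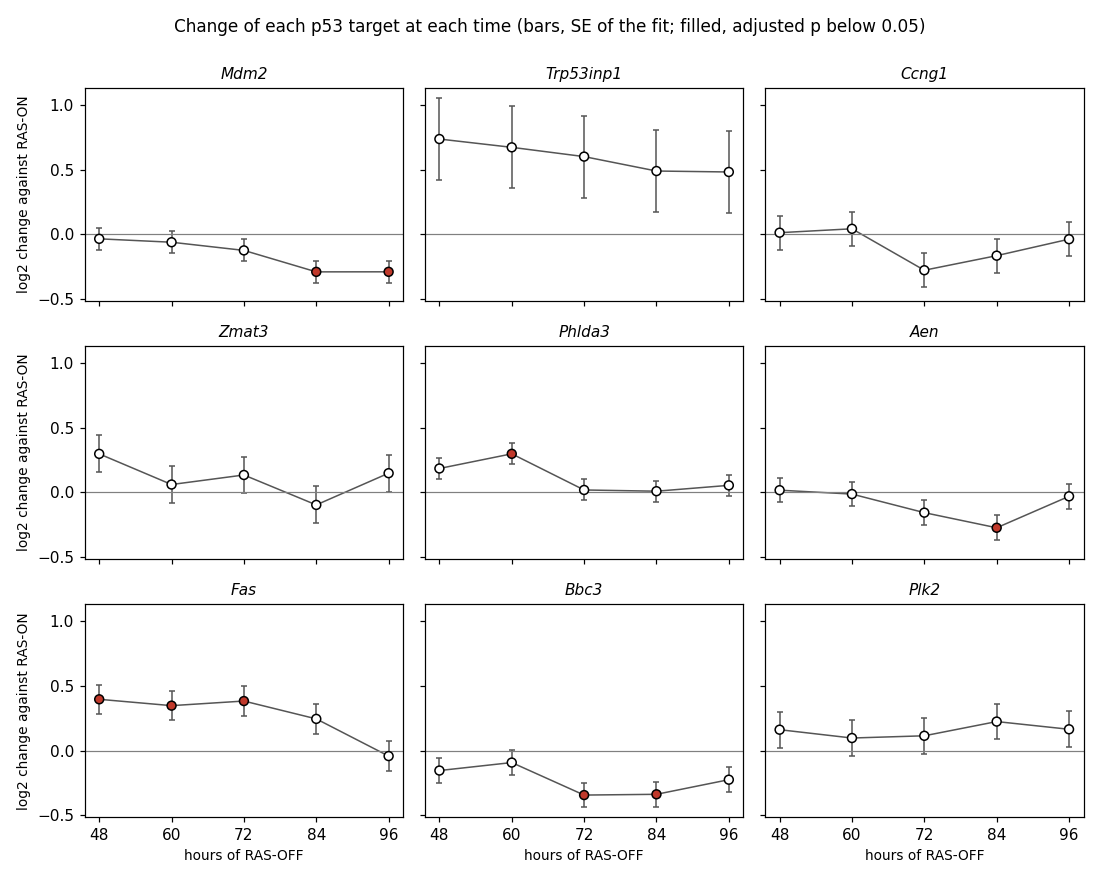
Log2 difference from the RAS-ON mean (y axis, one scale for all panels) at each RAS-OFF time in hours (x axis) for the 9 measured p53 targets, with bars of 1 SE from the limma fit and filled points where the adjusted p is below 0.05. Filled points are above 0 for Fas at 48, 60 and 72 h and Phlda3 at 60 h, and below 0 for Bbc3 at 72 and 84 h, Mdm2 at 84 and 96 h and Aen at 84 h.

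By time, each count of calls among the 9 targets was between 0 and 3 (limma). At 48 h 1 was higher and 0 lower (13.7% and 13.7% of all genes), and at 60 h 2 were higher and 0 lower (11.5% and 14.2%). At 72 h 1 was higher and 1 lower, against 13.4% and 18.3% of all genes. At 84 h 0 were higher and 3 lower (15% and 21.8% of all genes), and at 96 h 0 higher and 1 lower (16.7% and 20.9%). At an unadjusted p below 0.05, 0 were lower at 48 h and at 60 h, 1 was higher at 84 h and 0 were higher at 96 h. The zero counts depended on the analysis: with the replicate number as a block 1 was lower at 48 h, 2 were higher at 84 h and 1 at 96 h. Replicates 3 to 5 exist only in RAS-ON, so that block leaves RAS-ON arrays 1 and 2 alone as the baseline. Without RAS-ON replicate 4, 1 was higher at 84 h and 1 at 96 h. The median difference of the 9 targets was 0.16 at 48 h and -0.10 at 84 h, beside -0.07 and -0.05 over all genes. These comparisons share their 5 RAS-ON arrays. On the brightest probe sets, slopes within RAS-OFF were below 0 for all targets but Plk2. Their median was -0.05, beside 0.002 over all genes, and the share of all genes below 0 was not counted. Falling slopes passed for 2 of 9, Mdm2 and Fas, beside 8.75% of all genes. Among further probe sets, 1 of Mdm2 (0.01) and 1 of Aen (0.04) had slopes above 0, and the other ones of these genes below 0. The mean level of this Mdm2 probe set exceeded that of only 10.7% of all probe sets, and that of the Aen one 44.8%.

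The further probe sets of the same genes added 1 call. Of the 18 probe sets, 5 passed for RAS-OFF against RAS-ON in a fit over 45037 probe sets, of which 41.5% passed. These were the brightest ones of Mdm2, Trp53inp1, Fas and Bbc3, and a second one of Ccng1. This second Ccng1 probe set differed by -0.43 ± 0.10 (SE, limma adjusted p = 0.00483), in contrast to -0.08 on the brightest. With only RAS-ON arrays 4 and 5 as baseline this second probe set did not pass (-0.38, limma adjusted p = 0.0803). The third Ccng1 probe set differed by -0.14 (limma adjusted p = 0.055). With the mean of its 3 probe sets Ccng1 would be called lower (-0.22, limma adjusted p = 0.0151), so the gene's result depends on the probe set. None of the other probe sets of Mdm2, Aen or Plk2 passed.

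One array moved the time course of several of these probe sets. In the probe set fit, second probe sets of Mdm2 (-0.18, limma adjusted p = 0.0389), Ccng1 (-0.19, adjusted p = 0.014) and Aen (-0.17, adjusted p = 0.0458) had called falling slopes, as did 6.65% of all probe sets. In that fit the brightest ones of Mdm2 and Fas missed (adjusted p = 0.0574 and 0.0619). On these 3 second probe sets RAS-OFF 96 h replicate 1 read lower than replicate 2 by 0.82, 0.82 and 0.88, and on the brightest of the same genes by 0.04, 0.00 and 0.04. On that array the 3′ probe set of Gapdh exceeded the 5′ one by 1.22, against 0.10 to 0.35 on the other arrays, a sign of shortened RNA. Without it the 3 slopes were -0.10 (adjusted p = 0.269), -0.11 (0.0596) and -0.08 (0.297). Leaving out 48 h replicate 1 also ended all 3 calls (adjusted p = 0.203, 0.0833 and 0.310). The Mdm2 call was also lost without 48 h replicate 2, any array of 60 or 72 h, or 84 h replicate 1 (adjusted p from 0.054 to 0.0853). The Aen call was also lost without RAS-ON replicate 2, 4 or 5, or any array of 60, 72 or 84 h (adjusted p from 0.0511 to 0.0896).

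**Figure D3:**
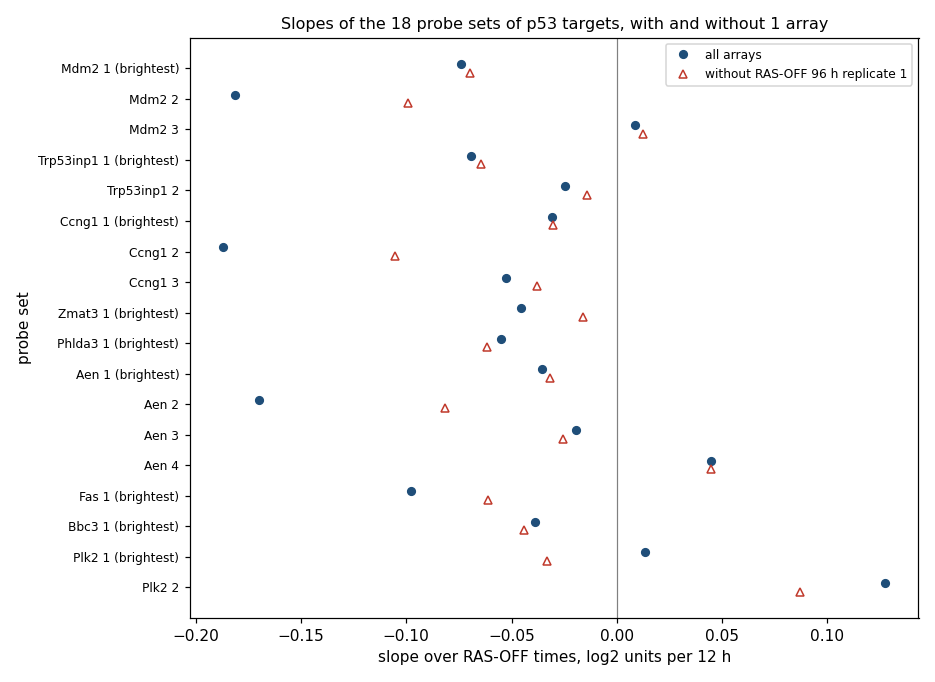
Slope over the RAS-OFF times in log2 units per 12 h (x axis) for each of the 18 probe sets of the p53 targets (y axis), with all arrays (filled circles) and without RAS-OFF 96 h replicate 1 (open triangles). The second probe sets of Mdm2, Ccng1 and Aen move toward 0, from -0.18, -0.19 and -0.17 to -0.10, -0.11 and -0.08, while the brightest of the same genes hardly move.

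Other direct targets of p53 were called in both directions. Of a list of 37, 34 were measured. RAS-OFF was called higher for 10 and lower for 10, and 14 did not pass, with a median change of 0.00. Beside 20.1% higher and 28.7% lower of all genes and a median of -0.04, no difference of the list from other genes was tested. The 3 largest rises were those of Gadd45a, a growth arrest and DNA damage gene (1.69 ± 0.06, SE, limma), Btg2, an antiproliferative gene (1.28 ± 0.11), and Cd82, a tetraspanin gene (0.90 ± 0.05). All 10 RAS-OFF arrays lay above all 5 RAS-ON arrays for each of them. Gadd45a, for instance, rose from 9.33 ± 0.12 (SD, n = 5) to 11.02 ± 0.14 (SD, n = 10).

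Genes tied to growth arrest were among the falls as well as among the rises. Cdkn1a, the cyclin-dependent kinase inhibitor gene p21 that p53 uses to stop the cell cycle, fell from 11.32 ± 0.32 (SD, n = 5) to 10.45 ± 0.33 (SD, n = 10), by 0.87 ± 0.13 (SE, limma adjusted p = 5.73e-05), with overlapping groups. With only RAS-ON arrays 4 and 5 as baseline Cdkn1a fell by 0.58 (adjusted p = 0.00733). Tigar, a regulator of glycolysis, fell by 1.05 ± 0.08, and Pmaip1, which encodes the BH3-only protein NOXA, by 0.81 ± 0.10. Dram1, a lysosomal gene of autophagy, fell by 0.67 ± 0.06, and Xpc, a DNA repair gene, by 0.61 ± 0.07 (SE, limma). Each of these 8 targets passed in all 26 alternatives. With the mean of a gene's probe sets Cd82 rose by 0.41 in place of 0.90.

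**Figure D4:**
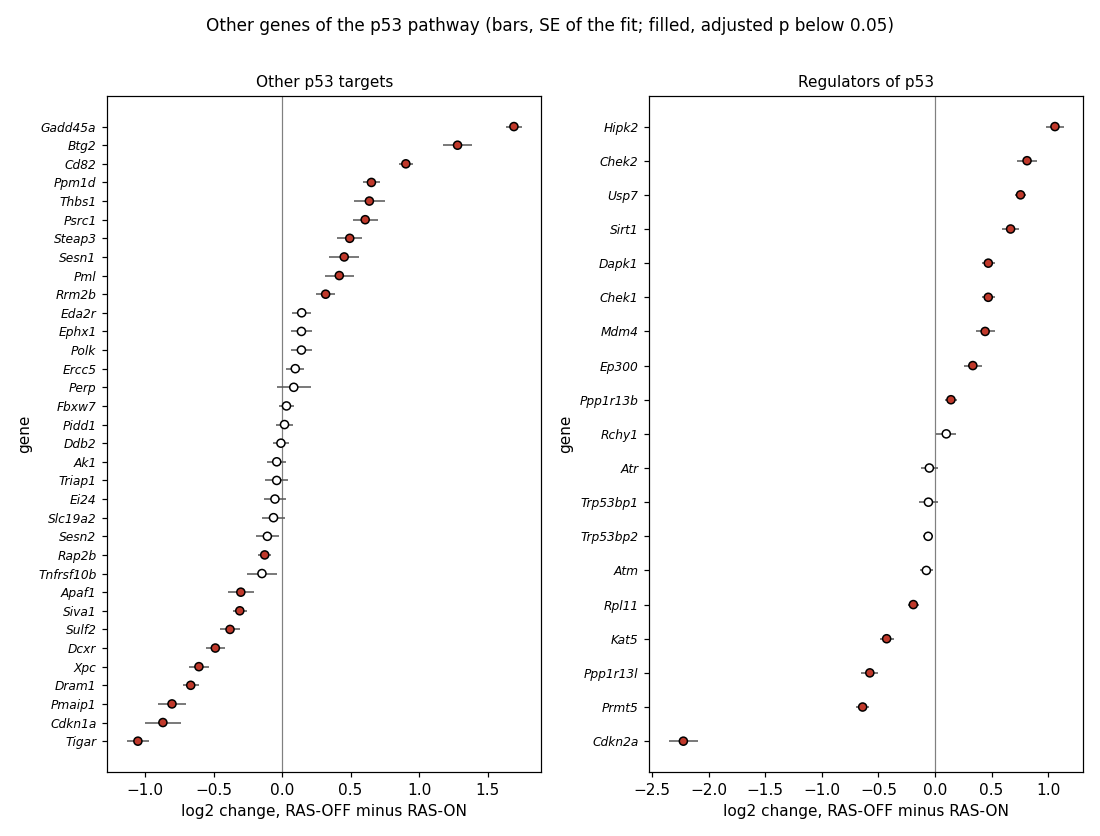
Log2 change of RAS-OFF against RAS-ON (x axis) for the 34 other p53 targets and 19 p53 regulators measured (y axis, ordered by change), with bars of 1 SE from the limma fit and filled points where the adjusted p is below 0.05. Targets spread from -1.05 (Tigar) to 1.69 (Gadd45a), and regulators from -2.22 (Cdkn2a) to 1.06 (Hipk2).

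Among the genes that act on p53, Cdkn2a fell most. Its locus encodes ARF, which blocks MDM2, and the kinase inhibitor p16, and which of them the probe set reads was not tested. Cdkn2a went from 9.58 ± 0.33 (SD, n = 5) to 7.36 ± 0.43 (SD, n = 10), a difference of -2.22 ± 0.13 (SE, limma) with no overlap between groups, and it fell by a further 0.25 ± 0.05 (SE) per 12 h within RAS-OFF. Of 21 regulators 19 were measured, with 9 called higher, 5 lower and 5 not passing, and a median change of 0.10, beside the same 20.1% higher and 28.7% lower over all genes.

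The largest called rises of regulators were those of Hipk2, a kinase gene that acts on p53 (1.06 ± 0.08), Chek2, a DNA damage checkpoint kinase gene (0.81 ± 0.09), and Usp7, which removes ubiquitin from MDM2 and p53 (0.76 ± 0.05). After Cdkn2a, the largest falls were those of Prmt5, an arginine methyltransferase gene (-0.64 ± 0.06), and Ppp1r13l, which encodes the p53 inhibitor iASPP (-0.58 ± 0.08, SE, limma). These 6 passed in all 26 alternatives, though with the mean of probe sets Hipk2 rose by 0.36 and Ppp1r13l fell by 0.23. Of the p53 relatives, Trp63 differed by -0.10 (adjusted p = 0.166), and passed in 1 of 25 alternatives, without RAS-OFF 72 h replicate 2 (adjusted p = 0.0248). The mean levels of Trp63 and Trp73 exceeded those of 34.6% and 42.0% of all probe sets. Trp73 differed by -0.15 (limma adjusted p = 0.0436) and passed in 8 of 25. It missed without RAS-ON replicate 1 (0.145), 3 (0.0651) or 5 (0.0862), and without any RAS-OFF array other than 48 h replicate 1 and 72 h replicate 2 (0.0507 to 0.0856).

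Marker levels of several cell types differed between RAS-OFF and RAS-ON. Erythroid markers were higher for 9 of 9 genes (median 1.67), with a mean log2 level of 11.07 to 11.40 in RAS-ON and 12.68 to 13.10 in RAS-OFF. Red pulp macrophage markers were higher for 9 and lower for 2 of 11, megakaryocyte markers higher for 7 of 7, and neutrophil markers higher for 5 of 8. Stroma and endothelium markers were higher for 5 and lower for 1 of 7, T cell markers higher for 2 of 5, and B cell markers higher for 1 and lower for 3 of 4. Natural killer cell markers were higher for 4 of 5. Markers of the myeloid leukemia were higher for 2 and lower for 5 of 11, with a mean level of 11.65 to 11.73 in RAS-ON and 10.59 to 11.13 in RAS-OFF. Over all genes 20.1% were called higher and 28.7% lower, and no difference of a marker list from other genes was tested. In such bulk samples fewer cells of a type and less RNA per cell cannot be told apart, and the part of these cell types in each p53 target's change was not tested.

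As for the targeted gene, Nras differed by -0.31 ± 0.09 (SE, limma adjusted p = 0.00725), and whether its probe set reads the transgene is not given in the sources used here. With only RAS-ON arrays 1 to 3 as baseline it did not pass (-0.20, adjusted p = 0.079). Median intensities of the 15 arrays ran from 149.99 to 156.53, and no 2 arrays were identical.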

How the data were processed

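RNA of leukemic spleen cells was extracted, amplified, biotin-labelled and hybridised to Affymetrix arrays, 1 per sample, per the labels' protocols. The values are linear intensities that the authors deposited after RMA, per the submitters' processing notes, which background-corrects, quantile-normalizes and summarises probes; log2 was taken here. The number of arrays limits the precision. Of 45101 probe sets 64 were controls and left out, 34945 had 1 gene symbol in the platform annotation, 932 several and 9160 none, and 34741 of those with 1 symbol matched RefSeq, with 0 symbols changed. The brightest probe set stood for each gene, and levels of different probe sets were not compared.

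limma 3.58.1 (R 4.3.3) was fitted with 1 mean per group over all 15 arrays. The 5 RAS-OFF means were compared with RAS-ON as their average and one by one, and a least-squares slope per 12 h was taken across them. P-values were two-sided and adjusted by Benjamini-Hochberg over all genes, or over all probe sets in the fit of single probe sets. On simulated data 83 of 100 genes changed by 0.5 and 100 of 100 changed by 1 were called for RAS-OFF against RAS-ON. Another 10 genes were called. Of slopes of 0.25, 98 of 100 were called, with 8 others. Shifts as small as those of most targets, and slopes as small as their called ones, were not simulated. The simulated arrays had no split between RAS-ON subsets.

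The genes named are all members, Cdkn1a, Nras, Trp63 and Trp73, the 3 largest called rises and 5 largest called falls among other targets, the 3 of each among regulators, and the 3 genes most correlated with Trp53inp1. The members, lists and RAS-ON subsets were chosen with earlier results of these data known. Groups share replicate numbers, but deviations from group means correlated between -0.237 and 0.217 in 30 same-numbered pairs, 5 of them over 0.1, so the numbers were not taken to pair samples. Alternatives are given in the closing section.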

Additional observations from a re-analysis of the deposited data

Results flagged for a closer look

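Differences between RAS-OFF times were seen for 6 of the named genes, as slopes of the group means per 12 h with a limma adjusted p below 0.05. Mdm2 had a slope of -0.074 and Fas of -0.098, and both calls were lost without several single arrays, as given above. Among other targets, Dram1 had a slope of -0.15 and Xpc of -0.22. Among regulators, Usp7 had a slope of 0.10 and Cdkn2a of -0.25. The slopes of Dram1, Usp7 and Cdkn2a passed in 25 of 26 alternatives and that of Xpc in 26 of 26. The exception for all of the former was the analysis without replicate 1 of 48, 84 and 96 h (adjusted p = 0.0588, 0.150 and 0.113), which leaves 1 array at each of these times. No RAS-ON array stood outside its group for a named gene by Dixon's criterion.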

How the results depend on the processing

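Counts of targets called, out of 9, were recomputed under every alternative. For RAS-OFF against RAS-ON, 2 were higher; 3 were with arrays centred on their medians, 1 without the dimmest 40% of genes (which removes Fas), with the mean of probe sets, with trend and robust settings, and without 48, 84 and 96 h replicate 1 together, and 0 against RAS-ON arrays 4 and 5 alone. The 2 lower became 3 with the mean of probe sets, 1 with centred arrays, array weights, the replicate block, RAS-ON arrays 1 to 3 alone, without those 3 RAS-OFF arrays and with 2 groups only, and 0 against RAS-ON arrays 4 and 5. Leaving out 1 array at a time gave 1 to 3 higher (3 without 60 h replicate 1) and 1 to 2 lower. At single times, leaving out 1 array gave 0 to 2 higher at 48, 60 and 72 h, 0 to 1 higher at 84 and 96 h, 0 lower at 48 and 60 h, 1 lower at 72 h, 1 to 3 lower at 84 h, 0 to 2 lower at 96 h, and 0 to 2 falling slopes. Over the other alternatives, higher counts were 0 to 3 at 48 h, 1 to 3 at 60 h, 0 to 2 at 72 and 84 h and 0 to 1 at 96 h. Lower counts were 0 to 1 at 48 h, 0 at 60 h, 0 to 2 at 72 h, 0 to 3 at 84 h and 0 to 2 at 96 h. Falling slopes were 0 to 3, with 3 for the mean of probe sets (Ccng1 added) and for regression within RAS-OFF (Trp53inp1 added). With the replicate block, 3 were higher and 1 lower at 48 h, 3 higher at 60 h, 2 higher at 72 h, 2 higher and 1 lower at 84 h, 1 higher at 96 h, and 1 slope fell; the block ended the calls of Mdm2 (all times, adjusted p = 0.256) and Nras (0.185). The replicate block had RAS-ON arrays 1 and 2 alone as its baseline, since replicates 3 to 5 exist only in RAS-ON. With all probe sets tested separately, 18711 were called. Signs turned in 4 cases: Trp53inp1 (-0.10) and Ccng1 (0.0073) against RAS-ON arrays 4 and 5, and the slope of Plk2 without 96 h replicate 1 (-0.033) or without those 3 RAS-OFF arrays (-0.020). Of 1700 recomputed values 1482 kept their direction and call or, for counts, stayed near the reported count. Centring the arrays moved the median change of all genes by 0.02 and the share of higher among called genes from 41.2% to 46.0%. Leaving out 1 array at a time, the Plk2 slope ran from -0.033 to 0.060. The causes of these changes were not tested.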
